A study of Mus musculus with 16 samples.

Results

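The comparison set cells of the mouse line 32Dcl.3 that carried both IRF8 and C/EBPα against cells of the same line that carried IRF8 alone, 3 days after transduction. It rests on 4 arrays, 2 for each kind of cell, of the 16 arrays of the series; the members were taken by their labels alone. The cells with both factors had been transduced with MSCV-IRF8-IRES-hCD8t and MSCV-C/EBPalpha-IRES-puro, and the IRF8-alone cells with MSCV-IRF8-IRES-hCD8t and an empty MSCV-IRES-puro vector. A further 4 arrays of the same day and the same slide held C/EBPα-alone cells (empty MSCV-IRES-hCD8t with MSCV-C/EBPalpha-IRES-puro) and empty-vector cells, 2 arrays each, and were used to ask whether the C/EBPα effect differed when IRF8 was present. Both cDNAs were murine, and every cell was grown in WEHI3B conditioned medium, which supplies interleukin 3. The 2 arrays of a group came from 2 experiments described as independent, so p-values measure the spread between those experiments in a single, immortal line. The other arrays of the series hold sorted bone marrow progenitors and were not used.

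C/EBPα is a basic leucine zipper transcription factor that binds DNA as a dimer. In bone marrow it is required for the step from common myeloid progenitor to granulocyte and monocyte progenitor, it switches on granule protein and cytokine receptor genes, and it slows the cell cycle, in part by opposing E2F. IRF8 is an interferon regulatory factor that works with partners such as PU.1. It favours monocytes and dendritic cells over neutrophils, and it has been reported to bind C/EBPα and to limit its action. 32Dcl.3 is a progenitor line that depends on interleukin 3 and can mature towards neutrophils when given G-CSF.

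Values are log2 of the processed spot signal after subtracting log2 of the array's 75th percentile over gene probes, so that 0 is the level of that percentile. A change is the mean of one group minus the mean of the other on this scale, given with its standard error from limma, a linear model over all 8 arrays (n = 2 arrays per group). A gene was called when its adjusted p was under 0.05. The 8 arrays had between 49.9% and 56.2% of probes well above background and 0 saturated spots, and same-group arrays correlated at 0.996 to 0.998 across genes. The arrays differed in brightness by group: the 75th percentile was 154 and 147 with both factors, against 367 and 369 with IRF8 alone. The added spike-in control RNA went the other way, with a geometric mean over 7 probes of 1600 against 1292. Scaling to the spike-in probes instead would lower every change of both factors minus IRF8 alone by 1.60 on the log2 scale. Scaling to the array median would lower it by 0.70, and taking the percentile over probes detected on all 8 arrays would raise it by 0.29. A rise smaller than 1.60 in this contrast is therefore a rise relative to the rest of the array. It turns into a fall on the spike-in scale. Changes of C/EBPα alone minus empty vectors would move by -1.25, -0.31 and 0.20 in the same order. On the slide the IRF8-alone arrays lay above the arrays with both factors in the same column, so that position and C/EBPα cannot be told apart.

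**Figure D1:**
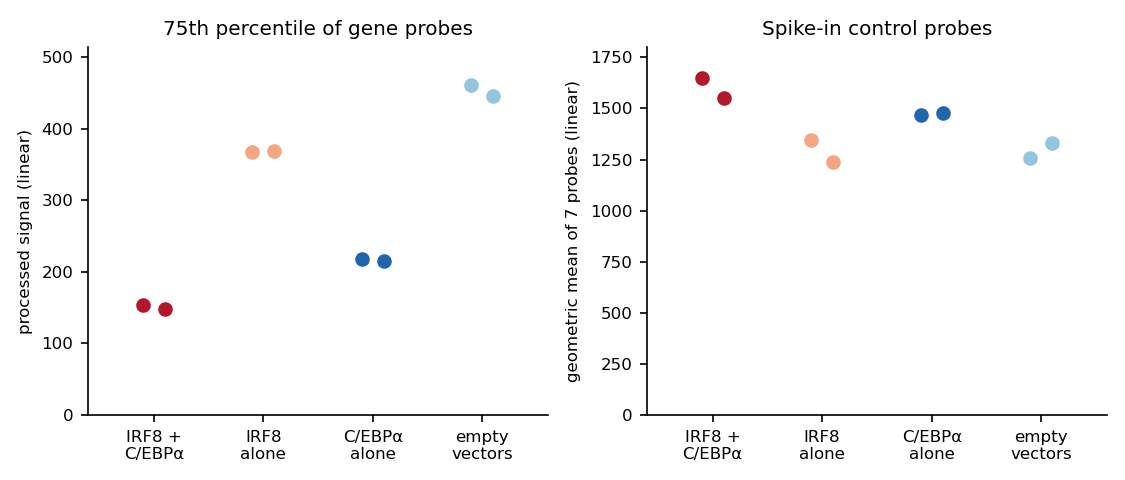
The left panel shows the 75th percentile of processed signal over gene probes and the right panel the geometric mean of 7 spike-in probes, both on linear axes from 0, with 1 point per array. Gene probes were dimmest with both factors (154 and 147, against 367 and 369 with IRF8 alone), while the spike-in probes were brightest there (1647 and 1552, against 1345 and 1240).

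The probes of the transduced genes did not check the labels. Their readings are given as linear processed signal, not on the log2 scale above and not corrected for array brightness. The single Cebpa probe read between 3.03 and 3.49 on the 4 arrays of cells given C/EBPα, against 3.10 to 3.98 on the 4 arrays without it, and was not well above background on any. The single Irf8 probe read between 1.97 and 2.44 with C/EBPα, against 6.76 to 13.04 without, and it too stayed below the background criterion on all 8 arrays. Of 12 genes used to check the line, 11 were well above background on all 8 arrays, among them Mpo, Elane, Prtn3, Ctsg, Cd34, Myb and the interleukin 3 receptor subunit genes. The exception was Kit, which did not pass the filter in any group.

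Most measured genes differed when C/EBPα was added to IRF8. Of 13337 genes tested, 10961 (82.2%) were called, 4810 (36.1%) higher and 6151 (46.1%) lower with both factors than with IRF8 alone. A change of at least 2-fold was called for 1812 genes (13.6%) upward and 2203 (16.5%) downward. The split between directions depends on the scale: 1789 genes were called higher and 9334 lower with array-median scaling, 6670 and 4616 with the percentile over detected probes, and 513 and 11919 with spike-in scaling. The 2 groups of arrays did not overlap for 12124 genes (90.9%). Of the called genes 10959 moved the same way in both experiments. A call made on these same arrays largely ensures this, so it is no separate support. The median change of all genes tested was -0.09.

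Many of the large rises were in genes of the late neutrophil, the stage at which secondary and tertiary granules are filled. Of 29 listed genes of that stage 24 were measured, and 23 rose (36.1% of all genes were called higher), with a median change of 4.15. Their median remained at 2.56 on the spike-in scale, where 18 rose and 5 fell. Ngp, a neutrophil granule protein of the cystatin family, stood at 5.92 and 5.90 in cells with both factors, against -0.55 and -0.52 in IRF8-alone cells. The groups lay far apart, a 87.3-fold rise (6.45 ± 0.0348 log2, adjusted p = 2.43e-17). S100a8 and S100a9 encode the subunits of calprotectin, the main cytosolic calcium-binding protein of neutrophils. S100a8 read 8.61 and 8.56 with both factors, against 3.17 and 3.15 with IRF8 alone, 43-fold higher. S100a9 read 10.18 and 10.21 with both factors, against 4.87 and 4.84 with IRF8 alone, a 40.5-fold rise.

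Genes of iron-binding and antimicrobial granule proteins followed. Ltf, lactoferrin of secondary granules, was at 6.25 and 6.26 in cells with both factors, against 0.98 and 1.09 in IRF8-alone cells (37.2-fold). Lcn2, which binds bacterial siderophores, was at 6.21 and 6.23 with both factors, against 1.26 and 1.30 with IRF8 alone (30.8-fold). Camp, the cathelicidin precursor, rose 16.5-fold, and Wfdc21, a small whey acidic protein family member, 91.5-fold. The stefin A genes Stfa1 and Stfa3, cysteine protease inhibitors of a cluster on mouse chromosome 16 whose near-identical copies the probes may not separate, rose 50.6-fold and 55.9-fold. Cd177, a neutrophil surface protein, rose by 3.14 ± 0.0446, Cxcr2, the receptor for neutrophil chemokines, by 3.14 ± 0.135, and Itgam, the αM subunit of the Mac-1 integrin, by 1.93 ± 0.045. Padi4, the enzyme that citrullinates histones, was the single measured member that fell (-0.97 ± 0.0358).

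For 2 late genes the size of the rise is uncertain, because their probes were not well above background on either IRF8-alone array. Retnlg, a resistin-like protein of neutrophils, was at 4.25 and 4.29 with both factors, against -4.65 and -4.71 with IRF8 alone, 493-fold higher on these readings. Mmp8, neutrophil collagenase, was at 0.54 and 0.49 against -6.76 and -6.95, at least 42.1-fold higher. For a bound the dim arrays were set to the higher of the probe's own value and the lowest signal well above background. That lowest signal was taken over all probes of the array and need not be the detection limit of the probe itself. For Retnlg the probe's own values were the higher ones, so 493-fold is the plain change and not a lower limit. The 250 bases before the start of each gene are shown because both hold a match to a C/EBP motif, TTGCNNAA (searched on both strands), set in capitals, from RefSeq's GRCm38.p6 (Retnlg chr16:48872358-48872607, plus strand; Mmp8 chr9:7558179-7558428, plus strand).
Retnlg: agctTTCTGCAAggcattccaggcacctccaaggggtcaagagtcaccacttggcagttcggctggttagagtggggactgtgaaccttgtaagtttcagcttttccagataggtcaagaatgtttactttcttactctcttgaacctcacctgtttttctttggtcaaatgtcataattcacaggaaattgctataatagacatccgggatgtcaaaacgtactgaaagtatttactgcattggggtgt
Mmp8: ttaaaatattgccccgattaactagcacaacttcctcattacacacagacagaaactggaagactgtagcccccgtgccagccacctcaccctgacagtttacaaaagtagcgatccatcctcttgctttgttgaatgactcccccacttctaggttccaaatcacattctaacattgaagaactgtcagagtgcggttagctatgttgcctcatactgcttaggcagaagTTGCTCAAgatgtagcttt
The match began 19 bases before the start in Mmp8 and 246 bases before it in Retnlg. Motif counts used whole RefSeq windows, which also held bases after the start that are not shown. Across the late neutrophil genes with a RefSeq window, 8 of 22 windows (36.4%) held the motif, against 1235 of 13478 windows (9.16%) of the genes tested and 10.8% of all 32851 windows in the table. A match describes the letters of the window and is no evidence of binding.

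Genes of primary granules, which form earlier, at the promyelocyte stage, had a smaller median change. Of 10 listed and measured, 8 rose (36.1% of all genes were called higher) and Serpinb1a fell. Their median change of 1.41 became -0.18 on the spike-in scale. Mpo, myeloperoxidase, was at 8.94 and 9.02 in cells with both factors, against 5.85 and 5.86 in IRF8-alone cells (8.74-fold). The lysozyme genes Lyz2 and Lyz1 rose 9.28-fold and 6.64-fold. The serine proteases moved by less than 1.60: Elane, neutrophil elastase, by 1.41 ± 0.0382, Prtn3, proteinase 3, by 1.56 ± 0.0356 and Ctsg, cathepsin G, by 1.42 ± 0.0302, and all 3 turned below 0 on the spike-in scale. Bpi, whose protein binds bacterial lipopolysaccharide, did not pass the test.

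**Figure D2:**
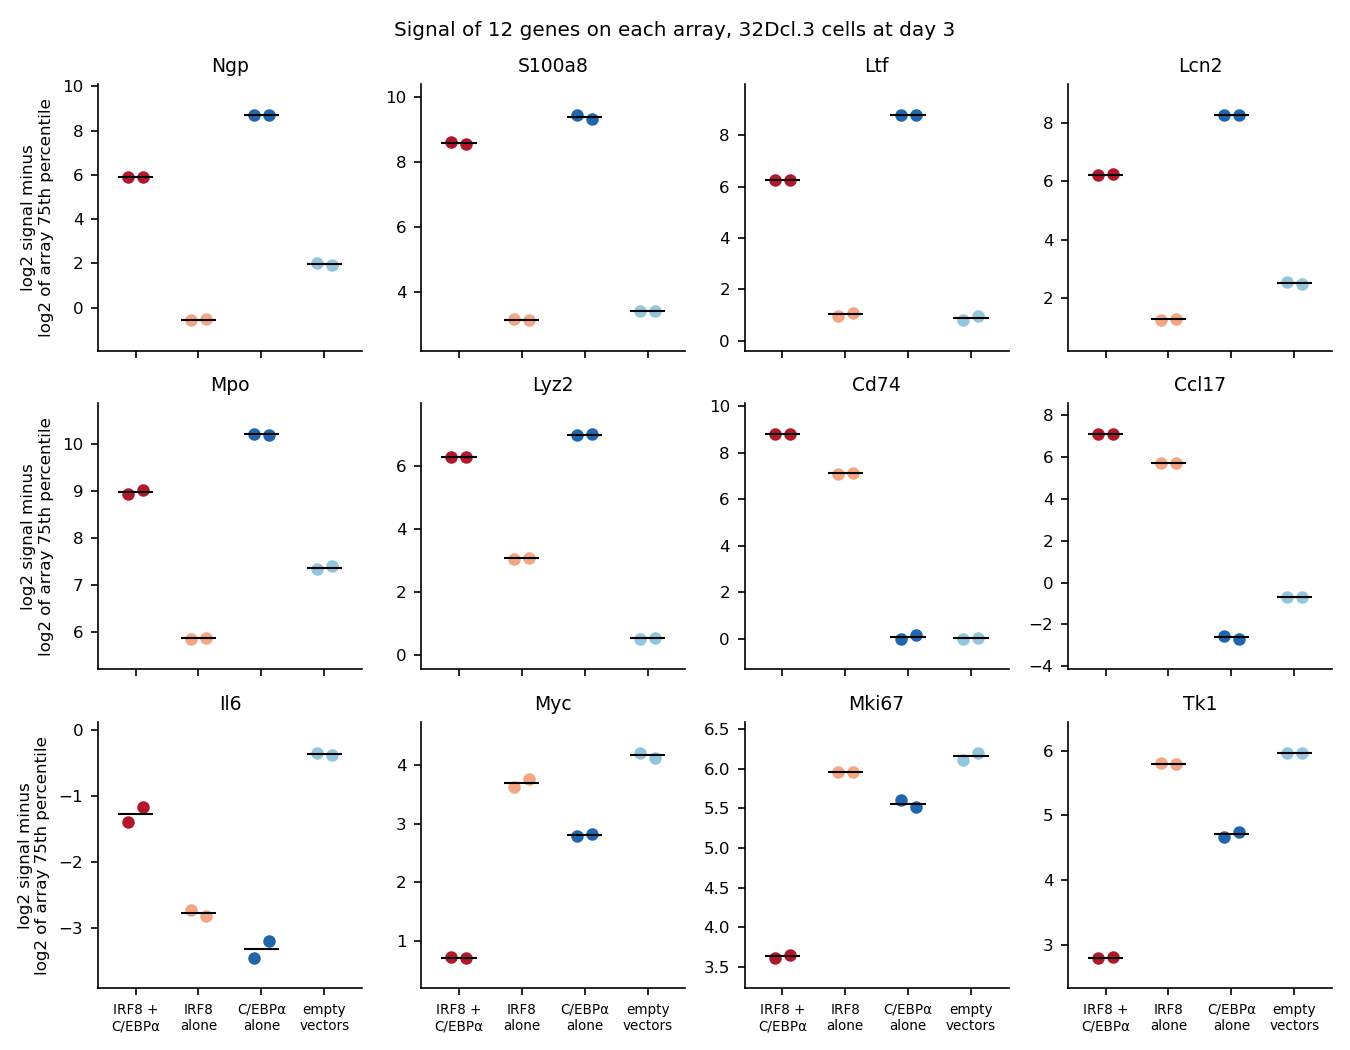
Each panel shows 1 gene, with 1 point per array and a bar at the mean of the 2 arrays of a group; the vertical axis is log2 signal minus log2 of the array's 75th percentile, and axis ranges differ between panels. Arrays of one group lie close together, so that Ngp sits at 5.92 and 5.90 with both factors, against -0.55 and -0.52 with IRF8 alone, and Mki67 at 3.62 and 3.65 against 5.96 and 5.96.

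Among regulators of granulocytes, members of the C/EBP family and their partners were mostly higher. Of 8 measured, 7 rose (36.1% of all genes were called higher) and Cebpz, listed by its name, fell. Their median of 1.15 was -0.45 on the spike-in scale. Trib1, a pseudokinase that promotes degradation of C/EBPα, was at 0.51 and 0.51 in cells with both factors, against -2.06 and -2.14 in IRF8-alone cells (6.12-fold). Ddit3, a C/EBP homolog that dimerises with other members, rose by 1.92 ± 0.0563. Cebpe, needed for secondary granule genes, rose by 1.20 ± 0.0291, Cebpd by 1.17 ± 0.038 and Cebpb by 0.71 ± 0.0289. Gfi1, a repressor needed for neutrophils, rose by 0.85 ± 0.04, and Csf3r, the G-CSF receptor, by 0.94 ± 0.0291; these 5 turned below 0 on the spike-in scale. Of 10 measured genes in a list of granulocyte regulators 7 rose and 3 fell, but 0 were called higher and 9 lower on the spike-in scale. Runx1, a partner of C/EBPα at myeloid promoters, fell by 1.47. Spi1, which encodes PU.1, was 0.51 higher, and went to -0.19 with array-median scaling.

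Proliferation genes fell, and their medians stayed below 0 under every alternative tried. Of 28 mitosis genes all were called lower, with a median change of -2.35, a 5.12-fold fall. Of 32 DNA replication genes all were called lower, with a median of -2.14, and 30 of them fell at least 2-fold. The background for a call downward was 46.1% of all genes, and for a 2-fold fall 16.5%. Mki67, the proliferation antigen Ki-67, was at 3.62 and 3.65 in cells with both factors, against 5.96 and 5.96 in IRF8-alone cells, a fall of 2.33 (SE 0.0373, adjusted p = 7.59e-14). Tk1, thymidine kinase of the S phase, was at 2.81 and 2.81 with both factors, against 5.81 and 5.78 with IRF8 alone, 7.93-fold lower. Rrm2, the regulated subunit of ribonucleotide reductase, fell 7.42-fold, Cdc6, which loads the replicative helicase, 7.45-fold, and the helicase subunit gene Mcm5 5.15-fold. The mitotic cyclin gene Ccna2 fell 7.52-fold and the mitotic kinase gene Plk1 5.62-fold. Within the mitosis list changes lay between -3.11 for Aurkb and -1.47 for Ndc80; the Aurkb probe was well above background on 1 of the 2 arrays with both factors.

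Cyclin-dependent kinase inhibitors, D cyclins and the retinoblastoma family did not move as a block. Of 15 measured genes 5 were higher and 9 lower (36.1% and 46.1% among all genes). Cdkn1a, encoding the inhibitor p21, was at 6.38 and 6.38 in cells with both factors, against 4.81 and 4.80 in IRF8-alone cells (1.58 ± 0.0267), and this rise was -0.02 on the spike-in scale. Cdk6, whose kinase drives entry into S phase and has been reported to hold back C/EBPα, fell by 1.72. Bcl2, a survival gene of progenitors, fell 5.42-fold, the largest fall of its family list. In that list 6 of 12 measured genes were higher and 4 lower, with a median of 0.14.

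Myc and genes of ribosome assembly, a large class of MYC targets, were lower as well. The wider list of MYC, MAX and related genes did not fall as a group. Of 10 measured, 2 were higher and 4 lower (36.1% and 46.1% among all genes), with a median of -0.08. On the spike-in scale 1 was higher and 9 lower. Myc was at 0.72 and 0.72 in cells with both factors, against 3.62 and 3.75 in IRF8-alone cells (7.8-fold lower, adjusted p = 6.66e-14). Mycn fell most among genes whose probes cleared background on each of the 4 arrays, at -3.39 and -3.01 against 1.71 and 1.70, 30.1-fold lower. Mxd1, which competes with MYC for MAX and is known to rise as granulocytes mature, was at 2.39 and 2.38 with both factors, against -0.63 and -0.73 with IRF8 alone (8.37-fold higher), whereas Mxd3, a family member linked to cycling cells, fell by 2.28. All 30 ribosome assembly genes were called lower (46.1% among all genes), with a median of -1.83, and 25 fell at least 2-fold (16.5%). Dkc1, the pseudouridine synthase of small nucleolar RNPs, fell 9.06-fold, Nolc1, a nucleolar phosphoprotein, 6.84-fold, and Ncl, nucleolin, 3.82-fold. Srm, spermidine synthase, fell 10.2-fold and Slc19a1, the reduced folate carrier, 9.09-fold; both were among the 10 largest falls.

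Windows before the start of 1 gene of each of the 3 classes that fell are shown with the motif known for the class in capitals. Each gene was picked for a large change and for holding the motif, which most windows of replication and ribosome assembly genes lack. Pola1, the catalytic subunit of DNA polymerase α (6.62-fold lower; chrX:93632156-93632405, minus strand), holds an E2F motif, searched as TTTCGCGC or TTTGGCGC. Kif11, a spindle kinesin (6.21-fold lower; chr19:37376132-37376381, plus strand), holds a cell cycle homology region, searched as TTTGAA or TTCGAA. Nop2, a ribosomal RNA methyltransferase (4.7-fold lower; chr6:125131633-125131882, plus strand), holds an E-box, CACGTG, the motif of MYC and MAX.
Pola1: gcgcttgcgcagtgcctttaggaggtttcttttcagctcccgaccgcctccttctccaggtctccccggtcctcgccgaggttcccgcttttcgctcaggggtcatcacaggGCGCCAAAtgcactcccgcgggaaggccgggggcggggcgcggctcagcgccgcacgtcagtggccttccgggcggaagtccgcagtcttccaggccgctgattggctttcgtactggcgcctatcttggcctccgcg
Kif11: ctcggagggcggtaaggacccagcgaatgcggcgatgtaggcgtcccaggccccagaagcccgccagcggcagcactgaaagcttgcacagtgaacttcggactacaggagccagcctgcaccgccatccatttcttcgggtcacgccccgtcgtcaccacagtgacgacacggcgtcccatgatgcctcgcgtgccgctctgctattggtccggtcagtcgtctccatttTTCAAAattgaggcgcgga
Nop2: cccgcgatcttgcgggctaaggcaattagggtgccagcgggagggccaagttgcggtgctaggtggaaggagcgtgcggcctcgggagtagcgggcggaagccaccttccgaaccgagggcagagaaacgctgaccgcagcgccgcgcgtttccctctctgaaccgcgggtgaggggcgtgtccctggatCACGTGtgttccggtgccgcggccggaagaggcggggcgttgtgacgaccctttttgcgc
All motifs were searched on both strands in RefSeq's GRCm38.p6 windows, which for the counts included bases after the start that are not shown. The E2F motif was in 10 of 32 windows of replication genes (31.3%), against 1.47% of windows of genes tested, and in 1 of 23 windows of mitosis genes. The cell cycle homology region was in 18 of 23 mitosis windows (78.3%), against 14.8%, and in 6 of 32 replication windows. CCAAT, searched alongside it, was in 19 of 23 mitosis windows (82.6%), against 37.8%. The E-box was in 5 of 27 ribosome assembly windows (18.5%), against 9.36%. The C/EBP motif was in 0 of 23 mitosis windows, 3 of 32 replication windows (9.38%) and 1 of 27 ribosome assembly windows. Among windows of genes tested it was in 9.16%.

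Of 17 measured genes of stem and early progenitor cells, 11 fell and 4 rose, with a median of -0.72, where 46.1% of all genes were called lower. Without the filter on dim probes 11 were lower and 9 higher, with a median of -0.18. Gata2, a factor of stem cells, mast cells and basophils, was at 1.28 and 1.19 in cells with both factors, against 4.69 and 4.61 in IRF8-alone cells (10.7-fold lower). Cd34, the progenitor surface marker, fell 4.73-fold and the ETS factor gene Erg 4-fold. Prom1, which encodes the progenitor antigen CD133, went the other way: it was at 0.44 and 0.53 with both factors, against -5.96 and -5.79 and below background with IRF8 alone, at least 41.1-fold higher.

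Of 15 measured genes reported as IRF8 targets, 11 rose and 3 fell (median 0.70), but 7 were higher and 6 lower with array-median scaling (median near 0) and 1 higher and 12 lower with spike-in scaling (-0.90). Of 10 MHC class II genes measured, 7 rose and 0 fell (background 36.1% higher), with a median of 1.37. Cd74, the invariant chain, was at 8.78 and 8.79 in cells with both factors, against 7.09 and 7.12 in IRF8-alone cells; it stood at 0.01 and 0.16 in C/EBPα-alone cells, against 0.02 and 0.03 in empty-vector cells. H2-Eb1 was at 7.14 and 7.17 with both factors, against 5.52 and 5.53 with IRF8 alone. Ciita, the activator of class II genes, rose by 1.52 ± 0.133. On the spike-in scale no class II gene was called higher, 5 were called lower and the median was -0.23.

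Monocyte and macrophage genes were split, with 14 of 23 measured higher and 7 lower and a median of 0.83. On the spike-in scale 2 were higher and 19 lower. Among all genes 36.1% were called higher and 46.1% lower. Csf1r, the M-CSF receptor, was at 7.19 and 7.21 in cells with both factors, against 6.26 and 6.27 in IRF8-alone cells (0.94 ± 0.0394). Klf4, a zinc finger factor of monocytes, rose by 1.00 ± 0.0912, Cd14, the co-receptor for lipopolysaccharide, by 1.88 ± 0.0784, and Fcgr4, an activating Fc receptor, by 2.43 ± 0.0849, whereas Fcgr1, the high-affinity Fc receptor gene, fell by 1.40. Of 11 dendritic cell genes measured, 8 rose and 2 fell. These medians too were below 0 on the spike-in scale (-0.76 and -0.68), while Cd14 and Fcgr4 stayed above it.

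Genes of phagocytosis, sensing and degradation changed in a direction that depends on the scale. Of 28 lysosomal genes 25 rose and 2 fell (36.1% and 46.1% among all genes), with a median of 0.72, while 8 were higher and 10 lower with array-median scaling and 1 higher and 26 lower with spike-in scaling. Psap, the precursor of saposins that activate lipid breakdown, was at 7.97 and 7.99 in cells with both factors, against 6.05 and 6.07 in IRF8-alone cells (3.79-fold), and Gusb, β-glucuronidase, was an exception at -1.67 ± 0.0274. Ctsd, the aspartic protease cathepsin D, rose 4.22-fold. Of 18 pattern recognition genes 14 rose and 2 fell, against 3 higher and 9 lower on the spike-in scale. Clec4n, the gene of dectin-2, rose 5.7-fold and Nod2, a sensor of bacterial muramyl dipeptide, 5.49-fold. Fcgr3, a low-affinity Fc receptor gene, rose 3.64-fold within a group of Fc receptor and adaptor genes with 11 of 14 higher. Of the 6 subunit genes of the phagocyte oxidase 5 rose, led by Cybb, at least 4.20-fold higher because its probe was not well above background with IRF8 alone. The spike-in medians of these lists were -0.88, -0.38, -0.88 and -0.58.

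Chemokine and inflammatory cytokine genes had 13 of 17 measured members higher and 3 lower, where 36.1% of all genes were called higher, but 6 higher and 10 lower on the spike-in scale (median -0.49). Il1b, interleukin 1β, was at 1.36 and 1.31 in cells with both factors, against -1.36 and -1.30 in IRF8-alone cells (6.34-fold). The macrophage inflammatory protein genes Ccl3 and Ccl4 rose 4.8-fold and 4.64-fold. Cxcl2, a ligand of CXCR2, was at least 5.17-fold higher, and Ccr1, a receptor of CCL3, rose by 1.79 ± 0.447, its probe being well above background on 1 of the 2 IRF8-alone arrays. Of 37 interferon-stimulated genes 26 rose and 7 fell, with a median of 0.76 that was -0.83 on the spike-in scale; Ifit1 was at least 3.47-fold higher, and Lgals3bp fell by 1.06.

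**Figure D3:**
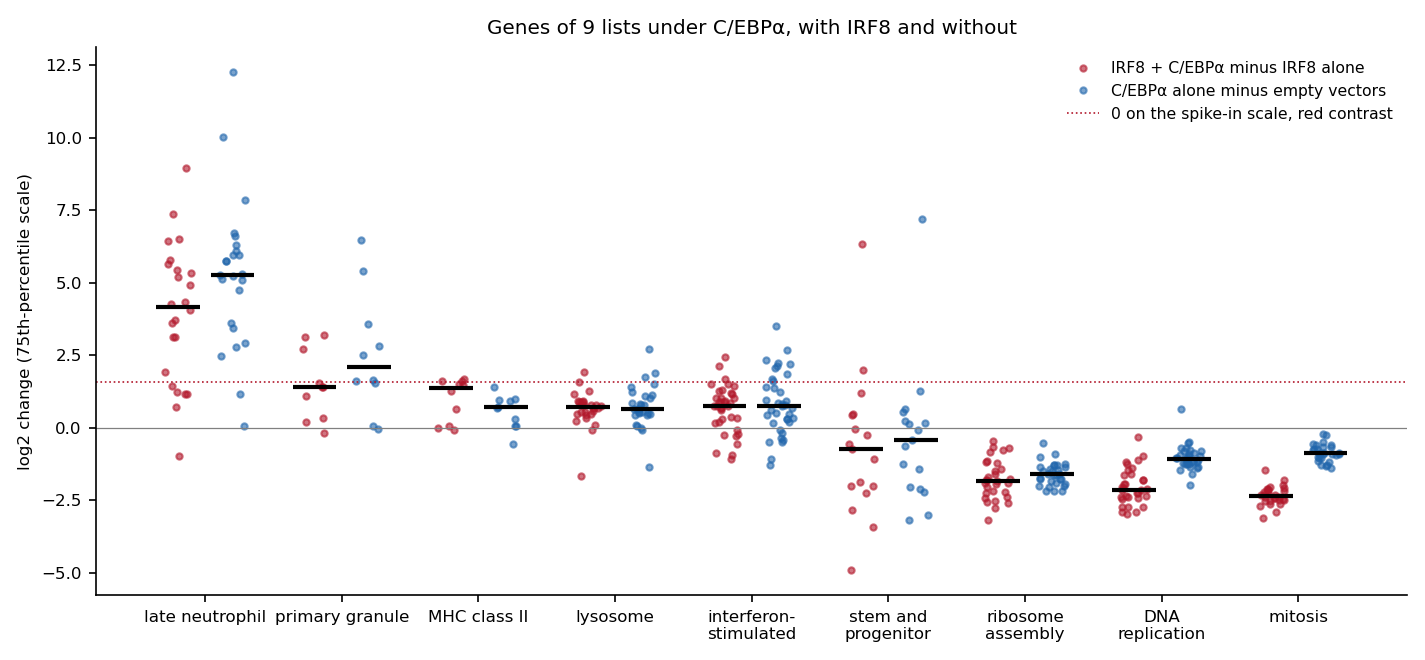
Each point is 1 measured gene of 9 lists, with the log2 change of IRF8 and C/EBPα minus IRF8 alone in red and of C/EBPα alone minus empty vectors in blue; black bars are list medians and the dotted line is 0 of the red contrast on the spike-in scale. Late neutrophil genes lie highest (medians 4.15 and 5.28), and mitosis genes are lower in red (-2.35) than in blue (-0.89).

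Some of the largest changes fell outside these groups. Mogat2, a monoacylglycerol acyltransferase, rose most among genes whose probes cleared background on each of the 4 arrays, at 4.24 and 4.30 in cells with both factors, against -3.22 and -3.11 in IRF8-alone cells (173-fold). Ankrd22 rose 43.5-fold and Chil1, a chitinase-like protein found in secondary granules, 34.8-fold. Mgst1, a microsomal glutathione transferase, was at least 160-fold higher and Slc30a4, a zinc transporter, at least 48.9-fold higher. Downward, Tespa1, a thymocyte signalling gene, fell 14-fold, Car12, a carbonic anhydrase, 11-fold, Aunip, a partner of Aurora A, 9.9-fold and Hkdc1, a hexokinase-like gene, 9.81-fold. Genes with bounds on a fall were Spata24 (at least 6.69-fold), Hbb-bs, a β-globin (at least 6.07-fold), Slit3 (at least 5.34-fold) and Wdr76 (at least 5.16-fold).

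Markers of other cell types were measured beside these results. β-globin signal was clear in IRF8-alone cells: Hbb-bt was at 3.12 and 3.11 with both factors, against 6.83 and 6.87 with IRF8 alone, and Hbb-b2 at 1.60 and 1.48 against 5.34 and 5.35, falls of 13.3-fold and 14-fold in genes whose near-identical copies may share probes. Across the erythroid list 6 of 10 measured genes fell and 2 rose (46.1% and 36.1% among all genes), while with normexp 3 were lower and 5 higher (median 0.24). Of megakaryocyte genes 5 of 10 were higher and 4 lower, with Itga2b lower (-2.14 ± 0.0315) and Gp1ba, not well above background with both factors, at least 4.15-fold lower. Of basophil, mast cell and eosinophil genes 6 of 14 were higher and 7 lower, with Ear2, an eosinophil-associated ribonuclease gene, at least 3.89-fold higher, as its probe was not well above background with IRF8 alone. B cell genes were mostly below background, with 5 of 12 measured, 1 higher and Cd79b lower (-1.74 ± 0.0831). Of T and NK cell genes 4 of 10 measured were higher, near the share among all genes, and 2 lower, with Gzmb, a granzyme also found in other cells, at least 3.68-fold lower, as its probe was not well above background with both factors. Calls in these lists also moved with the scaling: on the spike-in scale 0 of 10 megakaryocyte, 1 of 14 basophil, mast cell and eosinophil, 0 of 5 B cell and 0 of 10 T and NK cell genes were called higher. The part of changes in cell composition in the results above was not tested, and in bulk RNA fewer cells of a type and less RNA per cell cannot be told apart.

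C/EBPα had the same direction of effect on many genes when IRF8 was absent. C/EBPα-alone cells differed from empty-vector cells in 10509 of 13337 genes (78.8%), 4221 (31.6%) upward and 6288 (47.1%) downward, and at least 2-fold in 1498 (11.2%) upward and 1627 (12.2%) downward. This split too depends on the scale, with 763 genes higher and 11564 lower with spike-in scaling. Array-median scaling gave 2676 and 7934, and the percentile over detected probes 5571 and 4962. The 2 contrasts share no array. Of the genes up at least 2-fold, 1021 were shared, out of 1812 with IRF8 and 1498 without. Of those down at least 2-fold, 1243 were shared, out of 2203 with IRF8 and 1627 without. Across all genes the 2 changes had a Pearson correlation of 0.808, a description over genes, which are not independent replicates.

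The size of the C/EBPα effect nevertheless differed for 7429 genes (55.7%), being higher with IRF8 than without for 3175 (23.8%) and lower for 4254 (31.9%). It differed by at least 2-fold for 529 genes (3.97%) upward and 836 (6.27%) downward. With array-median scaling 788 were higher and 7708 lower, with the percentile over detected probes 4128 and 3488, and with spike-in scaling 775 and 6804, since these scalings move this difference by -0.39, 0.09 and -0.35. Late neutrophil genes rose less where IRF8 was present: 21 of 24 had a lower effect and 3 a higher one, with a median difference of -1.46. Ltf, at 6.25 and 6.26 in cells with both factors and 8.78 and 8.77 in C/EBPα-alone cells, rose by 5.22 ± 0.0491 with IRF8, against 7.88 ± 0.0491 without it, a difference of -2.66 ± 0.0695 (adjusted p = 1.23e-10). Ngp differed by -0.28 ± 0.0492, a small part of its rise, and S100a9 had a higher effect with IRF8 (0.57 ± 0.0402), though its level was much the same in both kinds of C/EBPα cells (10.18 and 10.21, against 10.30 and 10.31 without IRF8).

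Cell cycle genes fell further where IRF8 was present. The effect was lower for 27 of 28 mitosis genes (median difference -1.48) and 30 of 32 replication genes (-1.12), and higher for none of either list, against 31.9% lower among all genes. Mki67 fell by 2.33 with IRF8 and changed by -0.60 ± 0.0373 without it, a difference of -1.73 ± 0.0527 (adjusted p = 3.13e-10). IRF8-alone cells stood at 5.96 and 5.96, against 6.11 and 6.20 in empty-vector cells. Ribosome assembly genes had a median difference of -0.20, with 16 of 30 lower and 6 higher, against 24 lower and 0 higher with array-median scaling (median -0.58) and 21 lower and 0 higher with spike-in scaling (-0.54). Nop2 fell by 2.23 with IRF8 and changed by -2.01 ± 0.0329 without it. Myc fell further with IRF8 (-1.61 ± 0.0657) and so did Mycn (-1.72 ± 0.129).

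Where probes cleared background on all 8 arrays, the largest positive differences included genes that C/EBPα lowered without IRF8 and raised with it. Il6, interleukin 6, was at -1.38 and -1.16 with both factors, against -2.73 and -2.82 with IRF8 alone. It was at -3.45 and -3.20 in C/EBPα-alone cells, against -0.34 and -0.37 in empty-vector cells, so that the changes of 1.50 ± 0.131 and -2.97 ± 0.131 differed by 4.47 ± 0.186 (adjusted p = 2.56e-09). Ccl17, a chemokine of dendritic cells and macrophages, was at 7.10 and 7.11 with both factors, against 5.72 and 5.72 with IRF8 alone, and at -2.55 and -2.69 in C/EBPα-alone cells, against -0.67 and -0.68 in empty-vector cells. Its 2 changes differed by 3.32 ± 0.063. Itgax, the CD11c integrin subunit, differed by 2.67 ± 0.113, Lrrc14b by 2.65 ± 0.124 and Clec4d, a C-type lectin of myeloid cells, by 2.26 ± 0.0897; the rises of Il6, Ccl17 and Itgax with IRF8 were below 0 on the spike-in scale, where their differences stayed above it.

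Under the same condition, the largest negative differences belonged to genes that C/EBPα raised in both settings, and further without IRF8. Lyz2 rose by 3.21 ± 0.0291 with IRF8 and 6.46 ± 0.0291 without, a difference of -3.25 ± 0.0412 (adjusted p = 1.09e-12). Its level was 6.30 and 6.29 with both factors and 6.98 and 7.02 with C/EBPα alone, while IRF8-alone cells were at 3.07 and 3.09 and empty-vector cells at 0.53 and 0.55. Trem2, a receptor of macrophages, started at 2.80 and 2.80 with IRF8 alone, against -2.34 and -2.19 in empty-vector cells, and differed by -3.20 ± 0.0816. With IRF8 present, the change of Trem2 went to -0.109 with array-median scaling and to -1.01 with spike-in scaling. Aldh3b1, an aldehyde dehydrogenase, differed by -3.13 ± 0.0945 and Pram1, an adaptor of maturing granulocytes, by -2.83 ± 0.0452. Ceacam2, a cell adhesion gene, differed by -2.82 ± 0.0978, with IRF8-alone and empty-vector cells close to each other (-0.42 and -0.53, against -0.27 and -0.24).

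**Figure D4:**
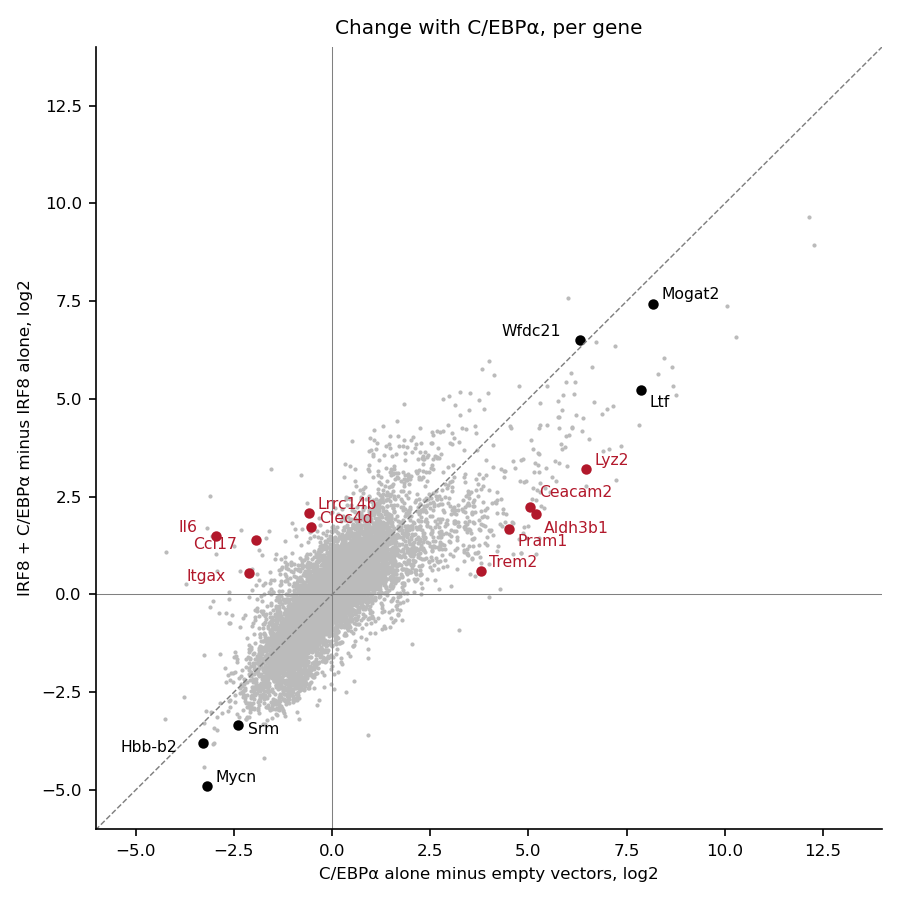
Each grey point is 1 of 13337 genes, with the log2 change of C/EBPα alone minus empty vectors on the horizontal axis and of IRF8 and C/EBPα minus IRF8 alone on the vertical axis; the dashed line marks equal changes. Red points are the genes with the 5 most positive and 5 most negative differences whose probes cleared background on all 8 arrays, Il6 (4.47 ± 0.186) and Lyz2 (-3.25 ± 0.0412) being the extremes, and black points are examples of the largest rises and falls.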

How the data were processed

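Per the labels, RNA of 32Dcl.3 cells was labelled with Cy3 and hybridised to 1-colour Agilent arrays, 1 sample per array, all 8 on 1 slide. Per the file headers, the deposited scanner files give processed spot intensity after background subtraction and spatial detrending by Agilent Feature Extraction, median spot and background intensity, and 0/1 flags (other values). The deposited series values are intensity that had been scaled further by a step not given in the sources used here.

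Spots marked as outliers were dropped and spots of a probe averaged. Of 55681 probes, 26762 had 1 gene symbol through RefSeq and the others none. The brightest probe stood for a gene, kept if well above background on both arrays of at least 1 group (13337 genes). Log2 values were fitted with limma 3.58.1 in R 4.3.3, eBayes with an intensity trend and Benjamini-Hochberg adjustment. Simulated arrays, with 100 genes per size changed in the group with both factors, returned 95% of 2-unit and 84% of 1-unit log2 changes. There were 10 false calls over 13337 genes. The changes were added to values already scaled, and far fewer genes changed than were called in the data. The simulation therefore tested the model fit and not the scaling. Same-numbered arrays did not deviate together (r between -0.065 and 0.054), so no block was used.

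The comparison and gene lists were chosen with earlier results of these data known. Named genes are the 10 largest rises and falls, the 5 highest bounds each way, Cebpa and Irf8, the 5 largest differences of effect each way, and list members as examples, picked after their values were seen. 1 gene that the rule names is not reported here.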

Additional observations from a re-analysis of the deposited data

Results flagged for a closer look

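The C/EBPα effect differed with IRF8 and without it for 7429 genes by limma's test of the difference (adjusted p under 0.05). Among the 10 largest rises, the effect with IRF8 minus that without was -2.66 for Ltf, -1.03 for Chil1, -0.81 for Stfa3, -0.74 for Ankrd22, -0.73 for Mogat2, -0.53 for S100a8, -0.43 for Stfa1 and -0.28 for Ngp, and it was 0.57 for S100a9 and 0.20 for Wfdc21. Among the 10 largest falls it was -1.72 for Mycn, -1.54 for Aunip, -1.0 for Slc19a1, -0.95 for Srm, -0.80 for Tespa1, -0.54 for Hbb-bt and Car12, -0.53 for Hbb-b2 and -0.40 for Gata2, while Hkdc1 did not pass the test. Where probes cleared background on all 8 arrays, the 5 most positive values were 4.47 for Il6, 3.32 for Ccl17, 2.67 for Itgax, 2.65 for Lrrc14b and 2.26 for Clec4d. The 5 most negative were -3.25 for Lyz2, -3.20 for Trem2, -3.13 for Aldh3b1, -2.83 for Pram1 and -2.82 for Ceacam2. The value of Wfdc21 changes sign under array-median or spike-in scaling, which lower every difference by 0.39 or 0.35. With 2 arrays in each group, no group was large enough for a test of single outlying arrays.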

How the results depend on the processing

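With array-median scaling 1789 genes were called higher and 9334 lower, 727 and 5430 at 2-fold or more; with the percentile over detected probes 2753 and 1421 passed 2-fold; with normexp 1193 rose at least 2-fold; with spike-in scaling, added after the data were seen, 513 were higher and 11919 lower, 280 and 10175 at 2-fold or more. Without the filter on dim probes 9382 were higher, 6147 of them at least 2-fold. For the difference of effects, array-median scaling gave 788 higher and 7708 lower, and spike-in scaling 775 and 6804. With array-median scaling Itgax (-0.13), Trem2 (-0.109) and Spi1 (-0.19) fell. With spike-in scaling these genes turned below 0: Il6 -0.0949, Ccl17 -0.21, Itgax -1.04, Trem2 -1.01, Elane -0.19, Prtn3 -0.0410, Ctsg -0.18, Cebpe -0.39, Cebpd -0.43, Cebpb -0.89, Gfi1 -0.75, Csf3r -0.65, Cdkn1a -0.0192, Klf4 -0.59, Csf1r -0.66, Spi1 -1.09 and Ciita -0.0723. The shift follows from the scaling, which moves all genes alike; which scale is nearer to RNA per cell was not tested. Leaving out 1 array at a time gave between 10275 and 10679 genes called. The replicate block, with the experiment number as a term, gave 4783 higher and 6131 lower. 2 arrays per group and 1 line limit the precision, and probes below background carry only approximate bounds.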

Other observations

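Metabolic and stress genes not described above were also measured. Among all genes 46.1% were called lower and 36.1% higher with IRF8, and 47.1% and 31.6% without it. Of 23 cholesterol and fatty acid synthesis genes 18 were lower with both factors than with IRF8 alone and 1 was higher (median -0.46). The split depends on the scale. With the percentile over detected probes 12 were lower and 8 higher (median -0.17), and with spike-in scaling 23 were lower and 0 higher (-2.06). Fasn, fatty acid synthase, fell by 1.17. Without IRF8, C/EBPα gave a median of -0.09, with 6 higher and 12 lower. Of 24 glycolysis and pentose phosphate genes 14 were lower and 8 higher with IRF8 (median -0.34). With the percentile over detected probes 12 were lower and 11 higher (median -0.04), and with spike-in scaling 23 were lower and 0 higher (-1.94). Of 6 heat shock genes measured 4 were higher and 2 lower with IRF8, while 2 were higher and 4 lower without it, and 1 was higher and 5 lower with IRF8 on the spike-in scale; Hspb1 was at -2.63 and -2.42 in cells with both factors, against -7.03 and -6.54 and below background in IRF8-alone cells, at least 5.10-fold higher. Junb, an AP-1 subunit, rose by 1.63 ± 0.109 with IRF8 and changed by -0.04 ± 0.109 without it, a difference of 1.67 ± 0.154. It had the largest rise with IRF8 in a list of AP-1 and immediate early genes. In that list 7 of 15 measured genes were higher and 3 lower with IRF8 (median 0.255). With array-median scaling 2 were higher and 8 lower, and with spike-in scaling 0 were higher and 13 lower (median -1.34).

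Summed over gene probes, the processed signal averaged 0.410 of the IRF8-alone value with both factors, and 0.478 of the empty-vector value with C/EBPα alone. The 75th percentile over the spike-in mean was 0.330 of the IRF8-alone value with both factors, and 0.420 of the empty-vector value with C/EBPα alone.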
